A study of Mus musculus with 12 samples.

Results

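The translation initiation factor genes of mouse CD4+ T cells were described across activation and across the loss of Sirt2, a NAD-dependent deacetylase. All gene symbols in the count tables beginning with Eif and a digit of 1 to 6 were taken if they had at least 30 reads summed over the 12 libraries. The pattern matched 55 symbols, of which 51 met the minimum, out of 23479 gene symbols in all. The other 4 symbols, Eif2s3y, Eif3j1, Eif3j2 and Eif4e1b, were listed at 0 reads in every library. For Eif2s3y and Eif4e1b a count of 0 allows up to 3 reads per library. Eif3j1 and Eif3j2 share 54.8% and 91.8% of the 50-base words of their longest transcripts with other genes, including each other, and reads that did not map uniquely went uncounted, so their 0 does not show that eIF3j is not expressed. All 51 members passed the filter on low counts, and 10981 genes were tested in total. Reads per member summed over the 12 libraries ran from 781 for Eif5a2 to 91772 for Eif4g2, with a median of 8647.

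RNA came from CD4+ T cells enriched by negative selection from spleens of Sirt2-/- mice (KO) and of wild-type C57BL/6J mice (WT), labelled with a C57BL/6 background. Each genotype was sampled once cells had spent 24 h on a plate coated with anti-CD3 (clone 145-2C11 at 5 µg/ml), which engages the T cell receptor complex, and at 0 h, directly after isolation. The 4 groups of 3 libraries are called KO 24 h, KO 0 h, WT 24 h and WT 0 h. The labels do not give the allele, age or sex of the mice, do not name an anti-CD28 antibody, and have no group cultured without anti-CD3, so that stimulation and 24 h of culture cannot be told apart. They do not say whether the numbered libraries are separate mice, and every p-value here reflects library-to-library spread, which may be technical.

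Initiation is the step at which a ribosome is placed on the start codon of an mRNA. eIF1, eIF1A, eIF2 with its initiator tRNA, eIF3 and eIF5 assemble on the small ribosomal subunit, and the cap-binding factors eIF4E, eIF4G and eIF4A recruit the mRNA, which is scanned until a start codon is found and eIF5B joins the large subunit. Cells restrain the process at a pair of points: kinases that phosphorylate eIF2 alpha, which blocks its recycling by eIF2B, and eIF4E-binding proteins (4E-BPs), which keep eIF4E from eIF4G until mTORC1 phosphorylates them. Resting T cells make little protein, and antigen receptor stimulation is known to raise protein synthesis before division.

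Reads assigned to genes, in megareads, ran from 3.63 to 10 per library, and the common biological coefficient of variation was 0.115. Sirt2 checked the genotype labels: at 24 h it had 9.51, 10.5 and 19.6 CPM (counts scaled to a common library size) in KO cells against 62.2, 62.9 and 76.2 CPM in WT cells. At 0 h it had 12.1, 9.03 and 16.2 CPM in KO cells against 70.4, 67.8 and 85.3 CPM in WT cells. The groups of a time did not overlap, and the log2 difference of KO minus WT was -2.39 at 24 h and -2.60 at 0 h (edgeR quasi-likelihood test, adjusted p = 1.25e-09 and 7.66e-11). Which exons the deletion removes is not given in the labels. Cd4 had 495 to 681 CPM in KO 24 h against 1556 to 1841 CPM in KO 0 h, and 514 to 646 CPM in WT 24 h against 1568 to 1692 CPM in WT 0 h, so the defining gene of the labelled cell type was present in every library. Markers of other cells moved with time: the summed B cell list had 2.93 to 7.21 CPM in KO 24 h against 16.8 to 28.6 CPM in KO 0 h, and 4.13 to 6.22 CPM in WT 24 h against 20.9 to 29.9 CPM in WT 0 h. The summed NK cell list had 3.84 to 4.75 CPM in KO 24 h against 31.5 to 40.6 CPM in KO 0 h, and 2.81 to 7.66 CPM in WT 24 h against 23.3 to 29.6 CPM in WT 0 h. The pair of CD8 T cell markers summed to 8.78 to 14.7 CPM in KO 24 h against 30.7 to 35.7 CPM in KO 0 h, and 8.08 to 11 CPM in WT 24 h against 17.3 to 18.5 CPM in WT 0 h. Nearly all of this sum was Cd8b1, and Cd8a, at 0.175 to 2.26 CPM, overlapped between the times. Myeloid markers summed to 5.22 to 12.2 CPM in KO 24 h against 14.7 to 15.5 CPM in KO 0 h, and overlapped between the times in WT cells. The part of these cells in the results was not tested. In RNA from whole populations, fewer cells of a type and less RNA per cell cannot be told apart, and CPM are shares of a library, not amounts per cell.

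After 24 h on anti-CD3, about as many initiation factor genes were higher as were not shown to change, and few were lower. In KO cells 23 of 51 members (45.1%) rose and 5 (9.8%) fell at an adjusted p under 0.05 (edgeR quasi-likelihood test with Benjamini-Hochberg adjustment over all genes), where 19.4% of all tested genes rose and 21% fell; the 5 became 0 without KO 24 h replicate 1, 3 without KO 24 h replicate 3, 2 without KO 0 h replicate 1 and 1 without KO 0 h replicate 2. Together 28 members passed in KO cells, beside a background of 40.4% of all tested genes. In WT cells 24 members (47.1%) rose and 4 (7.84%) fell, where 20.2% of all tested genes rose and 20.5% fell; 28 members passed in WT cells, beside 40.7% of all tested genes. The 4 that fell in WT cells became 1 without WT 24 h replicate 1 or 2, and 2 without any 1 WT 0 h library. The log2 change was above 0 in 40 of 51 members in KO cells (49.7% of all tested genes) and in 39 in WT cells (50.2%). The median log2 change over the members was 0.23 in KO cells and 0.26 in WT cells, beside 0.00 over all tested genes in each genotype. Of the members, 9 share over 20% of the 50-base words of their longest transcript with other genes (Eif1, Eif2s2, Eif2s3x, Eif3e, Eif3h, Eif3m, Eif4a1, Eif4a3 and Eif4ebp3), so their counts are less certain. The KO and WT comparisons share no library, and 18 members rose in both while Eif1b and Eif3k fell in both. No member rose in one genotype and fell in the other, and 15 passed in neither. The matching shares over all tested genes were not counted, so these shared calls do not set the members apart. Reads of the 51 members made up 1.14%, 1.18% and 1.16% of all gene reads in KO 24 h, against 0.829%, 0.841% and 0.825% in KO 0 h. The same share was 1.17%, 1.17% and 1.22% in WT 24 h, against 0.861%, 0.874% and 0.863% in WT 0 h, with no overlap between the times. These shares are of unscaled reads, and Rn45s alone took 7.95% to 8.16% in KO 24 h against 12.5% to 17.5% in KO 0 h. In WT cells it took 8.72% to 9.55% at 24 h against 13.3% to 16.1% at 0 h. As summed CPM, the rise was smaller: 10545 ± 424 in KO 24 h against 8931 ± 32.9 in KO 0 h. WT cells had 11213 ± 618 at 24 h against 9412 ± 168 at 0 h (SD, n = 3 each).

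**Figure D1:**
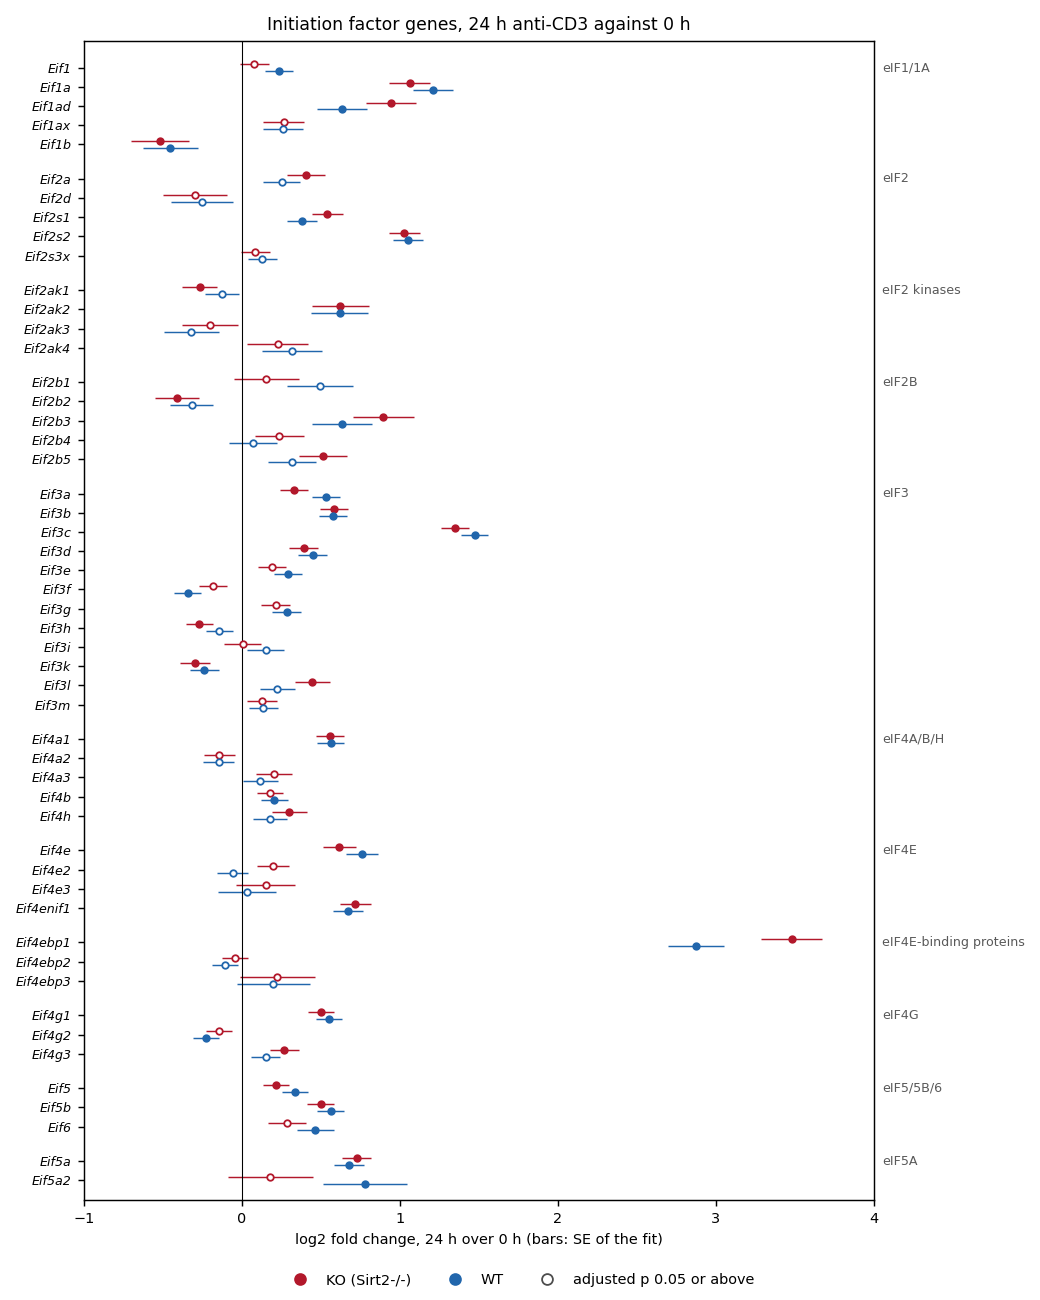
Log2 change at 24 h over 0 h (x axis) for each of the 51 members (y axis, by factor), in KO and in WT cells; points are edgeR estimates, bars are 1 standard error, and filled points passed an adjusted p of 0.05. Eif4ebp1 stands apart at 3.48 in KO and 2.87 in WT cells, followed by Eif3c at 1.35 and 1.47.

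The gene with the largest change of all members encodes a repressor of initiation. Eif4ebp1, which encodes 4E-BP1, had 49.4, 67.4 and 58.7 CPM in KO 24 h, against 4.61, 4.84 and 6.58 CPM in KO 0 h. It had 61.6, 49.5 and 70.7 CPM in WT 24 h, against 9.17, 9.13 and 6.63 CPM in WT 0 h. Every 24 h library was above every 0 h library, and the gene rose 11.1-fold in KO cells (log2 3.48, SE 0.192, edgeR adjusted p = 6.1e-20) and 7.32-fold in WT cells (log2 2.87, SE 0.177, edgeR adjusted p = 3.22e-18). The 0 h levels rest on 30 to 43 reads per KO library and 53 to 66 reads per WT library. Eif4ebp2, which encodes the 4E-BP with the most transcript per kilobase here, did not pass: it had 488, 528 and 551 CPM in KO 24 h, against 514, 547 and 555 CPM in KO 0 h. Eif4ebp2 in WT cells had 462, 500 and 515 CPM at 24 h, against 527, 552 and 513 CPM at 0 h. Its groups overlapped in both genotypes, with log2 changes of -0.04 in KO and -0.11 in WT cells (edgeR adjusted p = 0.703 and 0.302). Eif4ebp3 had 19.2, 12.6 and 9.44 CPM in KO 24 h, against 13.5, 10.3 and 11.7 CPM in KO 0 h. Eif4ebp3 in WT cells had 11.4, 14.3 and 15.2 CPM at 24 h, against 9.86, 12.6 and 13.3 CPM at 0 h, with overlapping groups. Neither Eif4ebp2 nor Eif4ebp3 has a stable sign in KO cells: without KO 24 h replicate 1, Eif4ebp3 moved to log2 -0.10, against 0.22 with all libraries, and Eif4ebp2 to 0.00. Eif4ebp3 shares 65.5% of the 50-base words of its longest transcript with other genes, so its counts are uncertain. Per kilobase of transcript, Eif4ebp1 made up 21.2% ± 2.73 of the summed level of the 3 4E-BP genes in KO 24 h, against 2.39% ± 0.419 in KO 0 h (SD, n = 3 each, exact permutation test, two-sided p = 0.1, the smallest that 3 against 3 libraries allow). The share was 22.6% ± 3.13 in WT 24 h, against 3.72% ± 0.621 in WT 0 h (SD, n = 3 each, exact permutation test, two-sided p = 0.1). That share depends on the transcript lengths used. As a share of the reads of the 3 genes, Eif4ebp1 made up 9.81% ± 1.14 in KO 24 h against 0.958% ± 0.165 in KO 0 h. WT cells had 10.7% ± 1.64 at 24 h against 1.5% ± 0.231 at 0 h (SD, n = 3 each).

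The cap-binding proteins are encoded by Eif4e and its relatives. Eif4e, the cap-binding subunit that 4E-BPs hold, had 143, 150 and 128 CPM in KO 24 h, against 106, 86.1 and 81.6 CPM in KO 0 h. Eif4e in WT cells had 144, 152 and 160 CPM at 24 h, against 84.6, 84.7 and 99.1 CPM at 0 h. The times did not overlap, and it rose by log2 0.62 in KO cells and 0.76 in WT cells (edgeR adjusted p = 2.61e-06 and 2.32e-08). Eif4enif1 encodes 4E-T, which carries eIF4E into the nucleus and to P-bodies; it had 138, 136 and 140 CPM in KO 24 h, against 89, 88.5 and 72.8 CPM in KO 0 h. Eif4enif1 in WT cells had 150, 155 and 151 CPM at 24 h, against 92.1, 105 and 89.8 CPM at 0 h. Its groups did not overlap, and it rose by log2 0.72 in KO and 0.67 in WT cells (edgeR adjusted p = 4.53e-08 and 1.14e-07). Neither Eif4e2, whose product 4EHP binds the cap without recruiting eIF4G, nor Eif4e3 passed in either genotype. As ratios of CPM within a library, Eif4ebp1 over Eif4e was 0.417 ± 0.0623 in KO 24 h against 0.0601 ± 0.0189 in KO 0 h. WT cells had 0.399 ± 0.0639 at 24 h against 0.0944 ± 0.0238 at 0 h (SD, n = 3 each). Eif4ebp2 over Eif4e moved the other way, with 3.74 ± 0.477 in KO 24 h against 6.01 ± 1.01 in KO 0 h. In WT cells it was 3.24 ± 0.0361 at 24 h against 5.97 ± 0.707 at 0 h (SD, n = 3 each). In each of these pairs the libraries did not overlap (exact permutation test, two-sided p = 0.1).

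**Figure D2:**
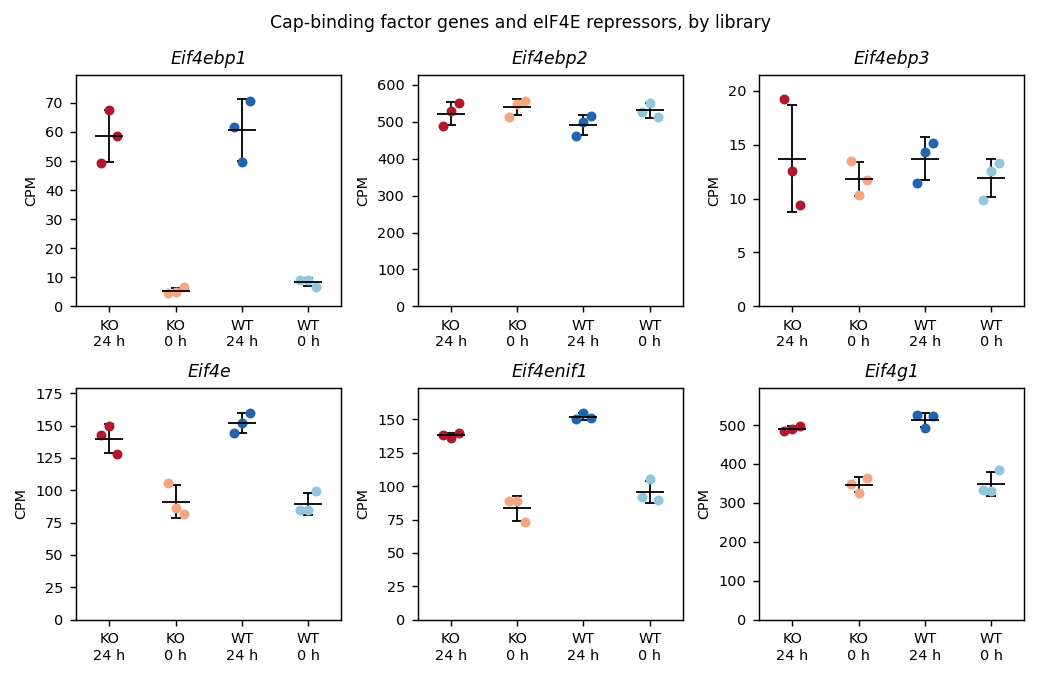
CPM (y axis, from 0) of the 3 4E-BP genes and of Eif4e, Eif4enif1 and Eif4g1 (a panel each) in the 12 libraries, by group (x axis); points are libraries, horizontal lines group means and bars 1 SD (n = 3). Eif4ebp1 lies at 49.4 to 70.7 CPM in the 24 h libraries and at 4.61 to 9.17 CPM in the 0 h libraries, while the Eif4ebp2 points of both times share 1 range.

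eIF4G, the scaffold that joins eIF4E, eIF4A and eIF3, is encoded by genes that moved differently. Eif4g1 had 484, 491 and 497 CPM in KO 24 h, against 349, 326 and 365 CPM in KO 0 h. Eif4g1 in WT cells had 525, 492 and 522 CPM at 24 h, against 334, 330 and 384 CPM at 0 h. It rose without overlap by log2 0.50 in KO and 0.55 in WT cells (edgeR adjusted p = 2.56e-06 and 3.01e-07). Eif4g2, whose product DAP5 lacks the eIF4E-binding site and serves cap-independent initiation, had 1010, 1119 and 1081 CPM in KO 24 h, against 1124, 1166 and 1265 CPM in KO 0 h. Eif4g2 in WT cells had 1119, 1129 and 1123 CPM at 24 h, against 1349, 1347 and 1255 CPM at 0 h. Its 24 h libraries were the lower ones in each genotype; the change passed in WT cells (log2 -0.23, edgeR adjusted p = 0.0229) and not in KO cells (log2 -0.15, edgeR adjusted p = 0.157). The WT call was lost without WT 24 h replicate 1 or 2 or without WT 0 h replicate 1 or 2 (edgeR adjusted p = 0.0663, 0.055, 0.105 and 0.0812), and with no low-count filter (0.0566). The ratio of Eif4g1 over Eif4g2 was 0.459 ± 0.0201 in KO 24 h against 0.293 ± 0.0161 in KO 0 h. WT cells had 0.457 ± 0.0184 at 24 h against 0.266 ± 0.0346 at 0 h (SD, n = 3 each; no overlap, exact permutation test, two-sided p = 0.1). Eif4g3 had 321, 254 and 300 CPM in KO 24 h, against 246, 232 and 248 CPM in KO 0 h. Eif4g3 in WT cells had 313, 317 and 261 CPM at 24 h, against 247, 293 and 261 CPM at 0 h. It rose in KO cells (log2 0.27, edgeR adjusted p = 0.0174), a call lost without KO 24 h replicate 1 (edgeR adjusted p = 0.146) or 3 (0.0648), and did not pass in WT cells (log2 0.15, edgeR adjusted p = 0.193), where it passed without WT 24 h replicate 3 (0.0457).

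Of the RNA helicase eIF4A and its cofactors eIF4B and eIF4H, 2 of 5 genes rose in each genotype and none fell. Over all tested genes, 19.4% rose and 21% fell in KO cells, and 20.2% rose and 20.5% fell in WT cells. Eif4a1 had 456, 487 and 448 CPM in KO 24 h, against 303, 309 and 334 CPM in KO 0 h. Eif4a1 in WT cells had 440, 450 and 542 CPM at 24 h, against 307, 337 and 326 CPM at 0 h. The times did not overlap, and it rose by log2 0.56 in each genotype (edgeR adjusted p = 6.58e-07 in KO and 4.73e-07 in WT), though 65.3% of the 50-base words of its longest transcript also lie in other genes, among them pseudogenes. Its paralog Eif4a2 did not pass, with log2 changes of -0.14 in KO and -0.15 in WT cells (edgeR adjusted p = 0.252 and 0.233). The ratio of Eif4a1 over Eif4a2 was 2.73 ± 0.397 in KO 24 h against 1.67 ± 0.239 in KO 0 h. WT cells had 2.74 ± 0.676 at 24 h against 1.65 ± 0.109 at 0 h (SD, n = 3 each; no overlap, exact permutation test, two-sided p = 0.1). Eif4h had 95.8, 111 and 131 CPM in KO 24 h against 90, 97.4 and 85.8 CPM in KO 0 h, overlapping at one library, and rose by log2 0.30 (edgeR adjusted p = 0.0271). That call was lost without KO 24 h replicate 2 or 3 or KO 0 h replicate 3 (edgeR adjusted p = 0.0508, 0.257 and 0.0599) and with upper-quartile scaling (0.0559). In WT cells Eif4h did not pass (log2 0.18, edgeR adjusted p = 0.193) unless WT 24 h replicate 1 was left out (0.0418). Eif4b had 414, 423 and 480 CPM in WT 24 h against 367, 379 and 396 CPM in WT 0 h, and rose by log2 0.21 (edgeR adjusted p = 0.0433); without WT 24 h replicate 3, WT 0 h replicate 1 or WT 0 h replicate 2 the call was lost (0.223, 0.102 and 0.0607), as with upper-quartile scaling (0.161) and with only these groups fitted (0.0517). In KO cells Eif4b did not pass (log2 0.18, edgeR adjusted p = 0.0868) unless KO 0 h replicate 1 was left out (0.0432). Eif4a3, which serves mainly in the exon junction complex, did not pass in either genotype.

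Promoter windows of 300 bases, from 250 before to 50 after the start, were read from RefSeq (GRCm38.p6), and 41 of 51 members matched, with 54 windows. No window was found for Eif1a, Eif2b3, Eif3e, Eif3h, Eif3i, Eif4e3, Eif4ebp1, Eif4ebp3, Eif4g2 and Eif6, so their promoters were not searched. They were searched for the E-box CACGTG, the palindrome bound by MYC and MAX among others, and on both strands for TGATGCAA, a composite site of the kind bound by ATF4. CACGTG lay in 12 of 54 member windows (22.2%), in 10 members, and in 7.15% of all 32851 windows in the table. TGATGCAA lay in 0 member windows and in 0.895% of all windows. A motif that rare can be absent from 54 windows without setting them apart. A match is a description of letters, not a bound site. Of the 10 members with CACGTG, 7 rose in at least 1 genotype, Eif3a, Eif4a1, Eif4e, Eif4g1, Eif4h, Eif5a and Eif5a2, and 3 fell in at least 1, Eif1b, Eif3f and Eif3k. Of the 31 members with a window and no CACGTG, 17 rose in at least 1 genotype, 2 fell in at least 1 and 12 passed in neither. The shares of all tested genes called in at least 1 genotype, with or without CACGTG, were not counted. These small counts therefore do not tie the hexamer to a change. The windows below are shown because they hold the same hexamer, in capitals, beside genes that rose (Eif4e, Eif4g1 and Eif5a) and genes that fell (Eif3k and Eif1b). The Eif4e window is chr3:138527018-138527317 on the plus strand, where CACGTG begins at -228 and -64 from the start; the Eif4g1 window is chr16:20672477-20672776 on the plus strand, with CACGTG at -54 and 15. The Eif5a window is chr11:69921337-69921636 on the minus strand, with CACGTG at -74; the Eif3k window is chr7:28981839-28982138 on the minus strand, with CACGTG at -44; the Eif1b window is chr9:120492356-120492655 on the plus strand, with CACGTG at -24. Where a gene has several windows, 1 that holds the hexamer is shown, and positions count from the start base as 0. Each is written 5′ to 3′ along its gene's strand.
Eif4e: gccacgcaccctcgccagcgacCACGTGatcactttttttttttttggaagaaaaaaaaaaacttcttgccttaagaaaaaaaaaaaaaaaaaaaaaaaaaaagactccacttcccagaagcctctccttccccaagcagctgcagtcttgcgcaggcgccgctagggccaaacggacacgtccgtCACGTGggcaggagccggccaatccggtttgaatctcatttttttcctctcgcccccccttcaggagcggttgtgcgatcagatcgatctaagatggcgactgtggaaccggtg
Eif4g1: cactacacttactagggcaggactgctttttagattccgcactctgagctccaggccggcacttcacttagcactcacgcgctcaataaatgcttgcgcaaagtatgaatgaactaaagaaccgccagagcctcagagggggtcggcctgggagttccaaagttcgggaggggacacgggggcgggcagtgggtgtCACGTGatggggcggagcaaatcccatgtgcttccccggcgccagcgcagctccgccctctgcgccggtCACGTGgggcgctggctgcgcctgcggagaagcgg
Eif5a: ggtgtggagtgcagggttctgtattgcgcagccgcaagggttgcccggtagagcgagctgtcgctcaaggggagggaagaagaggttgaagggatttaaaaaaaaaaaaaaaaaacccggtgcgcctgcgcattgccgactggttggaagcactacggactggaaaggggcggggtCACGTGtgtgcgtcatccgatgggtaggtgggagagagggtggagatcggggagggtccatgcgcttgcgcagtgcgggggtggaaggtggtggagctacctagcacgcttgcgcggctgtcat
Eif3k: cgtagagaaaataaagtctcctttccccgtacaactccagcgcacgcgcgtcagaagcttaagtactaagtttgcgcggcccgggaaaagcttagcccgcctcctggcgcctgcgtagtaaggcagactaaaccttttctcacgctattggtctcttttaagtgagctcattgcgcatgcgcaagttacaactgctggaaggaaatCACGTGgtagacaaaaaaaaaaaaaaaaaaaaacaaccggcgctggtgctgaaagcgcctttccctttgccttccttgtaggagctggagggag
Eif1b: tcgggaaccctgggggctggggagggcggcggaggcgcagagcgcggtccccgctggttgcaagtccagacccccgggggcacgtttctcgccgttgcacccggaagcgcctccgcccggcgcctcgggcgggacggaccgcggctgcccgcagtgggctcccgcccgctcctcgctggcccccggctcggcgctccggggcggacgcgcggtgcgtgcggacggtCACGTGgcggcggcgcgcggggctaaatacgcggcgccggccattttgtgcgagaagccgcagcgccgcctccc

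eIF3 is the many-subunit scaffold of the small ribosomal subunit, and its genes did not move as one. Of 12 measured genes, 5 rose and 2 fell in KO cells, and 6 rose and 2 fell in WT cells, with medians of log2 0.20 and 0.25. Beside them, 19.4% of all tested genes rose and 21% fell in KO cells, and 20.2% rose and 20.5% fell in WT cells. Eif3c, a core subunit that contacts eIF1 and eIF5, had 497, 532 and 516 CPM in KO 24 h, against 214, 197 and 196 CPM in KO 0 h. Eif3c in WT cells had 531, 538 and 656 CPM at 24 h, against 201, 202 and 218 CPM at 0 h. The times were far apart in both genotypes, and it rose by log2 1.35 in KO and 1.47 in WT cells (SE 0.0874 and 0.0871, edgeR adjusted p = 1.96e-17 and 7.19e-19). Eif3b, the core subunit that anchors eIF3g and eIF3i, had 216, 216 and 214 CPM in KO 24 h, against 144, 156 and 132 CPM in KO 0 h. Eif3b in WT cells had 214, 223 and 245 CPM at 24 h, against 159, 145 and 153 CPM at 0 h. It rose without overlap by log2 0.58 in each genotype (edgeR adjusted p = 4.71e-07 in KO and 4.06e-07 in WT). Eif3a and Eif3d, the subunit known to bind caps of certain mRNAs, also rose in both genotypes, by log2 0.33 and 0.39 in KO and by 0.53 and 0.45 in WT cells (edgeR adjusted p = 0.00232 and 0.000476 in KO, 2.7e-06 and 6.28e-05 in WT).

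Other eIF3 subunit genes were lower at 24 h. Eif3k had 223, 283 and 246 CPM in KO 24 h, against 352, 298 and 271 CPM in KO 0 h. Eif3k in WT cells had 275, 269 and 302 CPM at 24 h, against 333, 321 and 346 CPM at 0 h. It fell by 0.30 in KO and 0.24 in WT cells on the log2 scale (edgeR adjusted p = 0.00871 and 0.0327), with overlap in KO and none in WT cells. The KO call was lost without KO 24 h replicate 1 or KO 0 h replicate 1 (highest edgeR adjusted p = 0.22), and the WT call without WT 24 h replicate 1 or 2 or WT 0 h replicate 1 or 3 (highest 0.143). Eif3h fell in KO cells (log2 -0.27, edgeR adjusted p = 0.0089; lost without KO 24 h replicate 1 or KO 0 h replicate 2, highest 0.0785) and did not pass in WT cells (log2 -0.14, edgeR adjusted p = 0.18). Eif3f, a subunit of the MPN-domain pair with eIF3h, fell in WT cells (log2 -0.34, edgeR adjusted p = 0.00118) and did not pass in KO cells (log2 -0.18, edgeR adjusted p = 0.0897). A call in one genotype alone does not show a difference between the genotypes, and no member passed the test of that difference. The ratio of Eif3c over Eif3f was 1.07 ± 0.0422 in KO 24 h against 0.368 ± 0.0134 in KO 0 h. In WT cells it was 1.2 ± 0.0345 at 24 h against 0.343 ± 0.0474 at 0 h (SD, n = 3 each; no overlap, exact permutation test, two-sided p = 0.1). Eif3c over the other scaffold subunit Eif3a was 0.853 ± 0.0802 in KO 24 h against 0.42 ± 0.028 in KO 0 h. WT cells had 0.82 ± 0.0664 at 24 h against 0.43 ± 0.0344 at 0 h (SD, n = 3 each), again without overlap. Eif3k lies near Sirt2 on chromosome 7, with 7 protein-coding genes between them in the RefSeq order; its KO minus WT log2 difference was -0.17 at 24 h and -0.12 at 0 h and passed at neither time (edgeR adjusted p = 0.759 and 0.825).

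**Figure D3:**
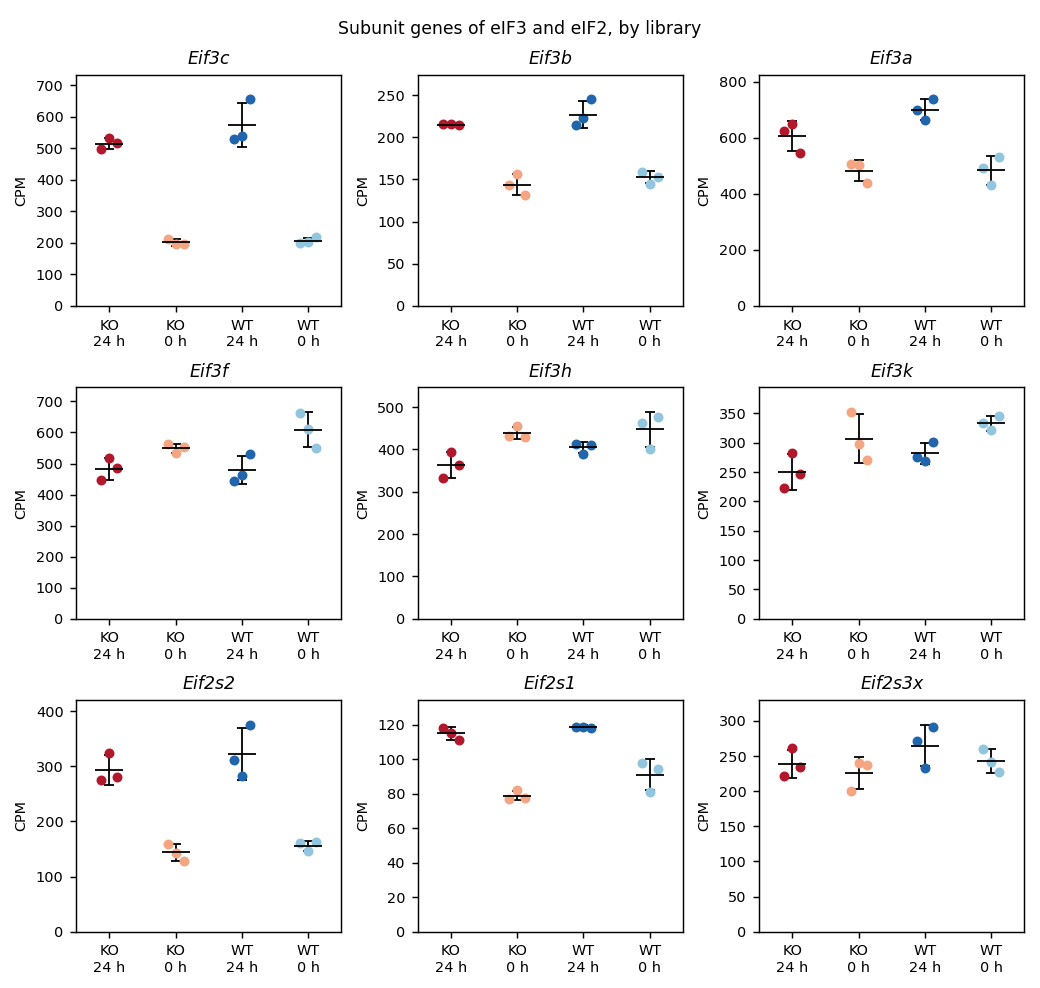
CPM (y axis, from 0) of subunit genes of eIF3 and eIF2 (a panel each) in the 12 libraries, by group (x axis); points are libraries, horizontal lines group means and bars 1 SD (n = 3). Eif3c and Eif2s2 are higher in every 24 h library than in any 0 h library, while their partners Eif3f and Eif2s3x are not.

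eIF2 carries the initiator tRNA, and the genes of its subunits moved unequally. Eif2s2, which encodes the beta subunit, had 276, 325 and 281 CPM in KO 24 h, against 160, 142 and 129 CPM in KO 0 h. Eif2s2 in WT cells had 312, 283 and 375 CPM at 24 h, against 161, 146 and 162 CPM at 0 h. It rose by log2 1.03 in KO and 1.05 in WT cells with no overlap (SE 0.0974 and 0.0964, edgeR adjusted p = 3.59e-12 and 1.36e-12). Eif2s1, which encodes the alpha subunit that the kinases phosphorylate, had 118, 115 and 111 CPM in KO 24 h, against 77.1, 82.1 and 77.5 CPM in KO 0 h. Eif2s1 in WT cells had 119, 119 and 118 CPM at 24 h, against 97.8, 81 and 94.5 CPM at 0 h. It rose by log2 0.54 in KO and 0.38 in WT cells (edgeR adjusted p = 1.33e-05 and 0.00104). Eif2s3x, the gamma subunit gene on the X chromosome, had log2 changes of 0.09 and 0.13 and did not pass (edgeR adjusted p = 0.496 and 0.273), and its Y-linked copy Eif2s3y was at 0 reads in every library. The Y-linked genes Ddx3y, Kdm5d and Uty were also at 0 reads, while Xist had 377 to 1310 CPM, the pattern of female cells. The 0 of Eif2s3y therefore does not show that CD4+ T cells keep the gene silent. The ratio of Eif2s2 over Eif2s3x was 1.23 ± 0.0265 in KO 24 h against 0.645 ± 0.134 in KO 0 h. WT cells had 1.22 ± 0.0711 at 24 h against 0.646 ± 0.059 at 0 h (SD, n = 3 each; no overlap, exact permutation test, two-sided p = 0.1). Of the transcript words of Eif2s2 and Eif2s3x, 27.8% and 36.2% also lie in other genes, so part of their counts is uncertain. Eif2a, which encodes a factor separate from eIF2 that can bring tRNA to the ribosome, rose in KO cells (log2 0.41, edgeR adjusted p = 0.00593) and did not pass in WT cells (log2 0.25, edgeR adjusted p = 0.0813) unless WT 0 h replicate 1 was left out (0.0261).

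eIF2B is the exchange factor that reloads eIF2 with GTP. Eif2b3, a subunit of its catalytic part, had 20.8, 20.8 and 26.8 CPM in KO 24 h, against 10.7, 12.4 and 13.7 CPM in KO 0 h. Eif2b3 in WT cells had 20.9, 19.8 and 21.6 CPM at 24 h, against 12.5, 12.3 and 15.3 CPM at 0 h. The times did not overlap, and it rose by log2 0.90 in KO and 0.63 in WT cells (edgeR adjusted p = 0.000213 and 0.00613). The catalytic subunit gene Eif2b5 had 39.1, 32.3 and 31.8 CPM in KO 24 h, against 23.1, 24.5 and 25 CPM in KO 0 h. Eif2b5 in WT cells had 29.5, 34.9 and 32.1 CPM at 24 h, against 26.5, 28.5 and 22.9 CPM at 0 h. It rose in KO cells (log2 0.51, edgeR adjusted p = 0.00618; 0.0681 without KO 24 h replicate 1), while in WT cells it did not pass though its libraries did not overlap (log2 0.32, edgeR adjusted p = 0.0886). Eif2b2 of the regulatory part fell in KO cells (log2 -0.41, edgeR adjusted p = 0.017), with overlapping libraries; the call was lost without KO 24 h replicate 1, KO 0 h replicate 1 or KO 0 h replicate 2 (highest 0.294), and WT cells had log2 -0.32 (edgeR adjusted p = 0.0606). Eif2b1 and Eif2b4 passed in neither genotype.

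The kinases of eIF2 alpha each answer a different stress, and 1 of 4 rose in both genotypes. Eif2ak2, which encodes PKR, the double-stranded RNA sensor induced by interferon, had 40.4, 29.5 and 28.3 CPM in KO 24 h, against 21.3, 21.3 and 21.4 CPM in KO 0 h. Eif2ak2 in WT cells had 33.7, 24 and 24.4 CPM at 24 h, against 23, 14.1 and 16.3 CPM at 0 h. All 24 h libraries were above the 0 h libraries of their genotype, and it rose by log2 0.62 in each (edgeR adjusted p = 0.00475 in KO and 0.00528 in WT). Each call rested on 1 library: without KO 24 h replicate 1 the adjusted p was 0.0925 and without WT 24 h replicate 1 it was 0.0689 (edgeR). Eif2ak1, which encodes HRI, the kinase of heme deficiency, had 69.3, 76.1 and 59.4 CPM in KO 24 h, against 79.6, 77.9 and 90.7 CPM in KO 0 h. Eif2ak1 in WT cells had 76.7, 71 and 82.5 CPM at 24 h, against 85.7, 86.4 and 78.9 CPM at 0 h. It fell in KO cells by 0.27 on the log2 scale (edgeR adjusted p = 0.0465), a call lost in 11 of 13 other fits, with adjusted p between 0.052 and 0.258, among them those without KO 24 h replicate 1 or 3 or any 1 KO 0 h library. Part of its transcript overlaps exons of Aimp2 and Ankrd61, and the strand of the counts is not given. Eif2ak3, which encodes PERK, the sensor of the endoplasmic reticulum, had 30.4, 22.5 and 16.7 CPM in KO 24 h, against 26.8, 24.8 and 29.3 CPM in KO 0 h. Eif2ak3 in WT cells had 18.9, 21.6 and 25.2 CPM at 24 h, against 23.9, 28.8 and 29.5 CPM at 0 h. Its libraries overlapped between the times in both genotypes (log2 -0.20 in KO and -0.32 in WT, edgeR adjusted p = 0.391 and 0.141). Eif2ak4, which encodes GCN2, the sensor of amino acid shortage, had 21.6, 18.2 and 21.1 CPM in KO 24 h, against 16, 19.3 and 16.7 CPM in KO 0 h. Eif2ak4 in WT cells had 14.9, 23.4 and 20.1 CPM at 24 h, against 18.2, 14.4 and 15 CPM at 0 h. It overlapped likewise and did not pass (log2 0.23 in KO and 0.32 in WT, edgeR adjusted p = 0.375 and 0.186).

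eIF1 and eIF1A hold the scanning ribosome open and guard start codon choice, and the genes of each are a pair. Eif1a had 54.5, 61.3 and 54.7 CPM in KO 24 h, against 27.1, 26.1 and 28.6 CPM in KO 0 h. Eif1a in WT cells had 70.3, 63.4 and 64.9 CPM at 24 h, against 31.3, 28.9 and 25.9 CPM at 0 h. It rose without overlap by log2 1.06 in KO and 1.21 in WT cells (SE 0.13 and 0.126, edgeR adjusted p = 3.72e-09 and 6e-11). Its X-linked paralog Eif1ax had log2 changes of 0.26 in each genotype and did not pass (edgeR adjusted p = 0.108 in KO and 0.103 in WT). The ratio of Eif1a over Eif1ax was 1.16 ± 0.0712 in KO 24 h against 0.68 ± 0.0996 in KO 0 h. WT cells had 1.29 ± 0.187 at 24 h against 0.661 ± 0.0643 at 0 h (SD, n = 3 each; no overlap, exact permutation test, two-sided p = 0.1). Eif1 had 588, 686 and 635 CPM in KO 24 h, against 583, 652 and 572 CPM in KO 0 h. Eif1 in WT cells had 730, 673 and 768 CPM at 24 h, against 618, 535 and 693 CPM at 0 h. It rose in WT cells with overlapping libraries (log2 0.23, edgeR adjusted p = 0.0333) and did not pass in KO cells (log2 0.08, edgeR adjusted p = 0.52); the WT call was lost without WT 24 h replicate 1 or 3 or WT 0 h replicate 1 or 2 (0.0792, 0.125, 0.0543 and 0.199) and with upper-quartile scaling (0.118). Eif1b, its less expressed paralog, had 18.7, 22.3 and 18.6 CPM in KO 24 h, against 23.8, 34.8 and 27.5 CPM in KO 0 h. Eif1b in WT cells had 23.5, 16.9 and 27.5 CPM at 24 h, against 26.6, 31.3 and 34.1 CPM at 0 h. It fell by 0.52 in KO and 0.45 in WT cells on the log2 scale (edgeR adjusted p = 0.02 and 0.0328), with no overlap in KO cells and overlap in WT cells. The KO call was lost without KO 24 h replicate 1 or 3 or KO 0 h replicate 2 (0.0814, 0.0704 and 0.202), and the WT call without WT 24 h replicate 1 or 2 or WT 0 h replicate 2 or 3 (0.0545, 0.292, 0.0754 and 0.165) and with DESeq2 (0.0506). Eif1ad, which encodes a protein with an eIF1A-like domain, had 38.4, 38.9 and 47 CPM in KO 24 h, against 23.4, 21.8 and 18.8 CPM in KO 0 h. Eif1ad in WT cells had 29.9, 32.1 and 44.6 CPM at 24 h, against 21.8, 24.6 and 22.4 CPM at 0 h. It rose by log2 0.94 in KO and 0.63 in WT cells (edgeR adjusted p = 4.69e-06 and 0.00101), and 15.3% of its transcript overlaps an exon of Banf1.

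The late factors act when the start codon has been found. Eif5b, the GTPase that joins the large subunit, had 217, 217 and 202 CPM in KO 24 h, against 152, 146 and 152 CPM in KO 0 h. Eif5b in WT cells had 261, 237 and 260 CPM at 24 h, against 175, 155 and 183 CPM at 0 h. The times did not overlap, and it rose by log2 0.50 in KO and 0.56 in WT cells (edgeR adjusted p = 7.05e-06 and 5.12e-07). Exons of Rev1 on the opposite strand overlap 16.8% of the exon bases of Eif5b, and the strand of the counts is not given. Eif5, the activator of GTP hydrolysis by eIF2, had 267, 230 and 257 CPM in KO 24 h, against 204, 230 and 216 CPM in KO 0 h. Eif5 in WT cells had 274, 271 and 287 CPM at 24 h, against 216, 220 and 223 CPM at 0 h. It rose by log2 0.34 in WT cells (edgeR adjusted p = 0.00092) and 0.22 in KO cells (0.0355); the KO call was lost without KO 24 h replicate 1 or 3 or KO 0 h replicate 1 (0.164, 0.109 and 0.0785) and with upper-quartile scaling (0.0892). Eif6, which keeps the subunits apart until the large one is mature, had 64.9, 89.7 and 73.3 CPM in KO 24 h, against 64.8, 55.1 and 67.3 CPM in KO 0 h. Eif6 in WT cells had 76.7, 83.4 and 97.6 CPM at 24 h, against 62.6, 66.3 and 58.4 CPM at 0 h. It rose in WT cells (log2 0.46, edgeR adjusted p = 0.00115) and did not pass in KO cells (log2 0.29, edgeR adjusted p = 0.0519). In KO cells Eif6 did pass without KO 24 h replicate 1, KO 0 h replicate 1 or KO 0 h replicate 3 (0.0158, 0.0368 and 0.0252), with RLE scaling (0.044), with Rn45s left out (0.0476), with no low-count filter (0.0254) and with only these groups fitted (0.0469). Eif5a encodes the hypusine-bearing factor that acts mainly when elongating ribosomes stall; it had 692, 849 and 800 CPM in KO 24 h, against 476, 428 and 513 CPM in KO 0 h. Eif5a in WT cells had 777, 716 and 902 CPM at 24 h, against 545, 504 and 451 CPM at 0 h. It rose without overlap by log2 0.73 in KO and 0.68 in WT cells (edgeR adjusted p = 1.51e-08 and 6.37e-08). Its paralog Eif5a2 had 8.41, 12.7 and 10.7 CPM in KO 24 h, against 8.68, 8.71 and 10.9 CPM in KO 0 h. Eif5a2 in WT cells had 13.8, 10.3 and 15.3 CPM at 24 h, against 10.9, 4.71 and 7.5 CPM at 0 h. It rose in WT cells with overlap (log2 0.78, edgeR adjusted p = 0.0156; 0.0854 without WT 24 h replicate 3 and 0.124 without WT 0 h replicate 2) and did not pass in KO cells (log2 0.18, edgeR adjusted p = 0.636).

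Levels can be compared between genes only per length, here as CPM per kilobase of the longest coding transcript in GENCODE. Eif5a had the highest level in KO 24 h, 543 ± 55.7, and in WT 24 h, 556 ± 66.2, followed by Eif1 at 481 ± 37.1 and 547 ± 36.3 CPM per kilobase; the libraries of these neighbours overlapped in each group (SD, n = 3 each). At 0 h Eif1 led, with 456 ± 32.9 in KO and 465 ± 59.9 CPM per kilobase in WT cells (SD, n = 3 each), and Eif5a2 was last in all 4 groups, at 1.53 to 2.62 CPM per kilobase. Per kilobase, Eif4ebp1 was at 29.3 ± 4.51 in KO 24 h against 2.68 ± 0.541 in KO 0 h, and at 30.3 ± 5.3 in WT 24 h against 4.16 ± 0.73 in WT 0 h (SD, n = 3 each). With these lengths, its 24 h level was close to that of Eif4e, whose means were 28.1 in KO 24 h and 30.4 CPM per kilobase in WT 24 h. It was below that of Eif4ebp2, whose means were 90.3 and 85.1 CPM per kilobase. The closeness to Eif4e depends on the length: the longest coding transcript of Eif4e has 4991 bases and the median 792.5. By CPM without length, Eif4ebp1 over Eif4e was 0.417 in KO 24 h and 0.399 in WT 24 h.

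Genes of neighbouring steps were counted from lists, since translation also needs elongation, termination and the mRNA's own proteins. The shares to set beside these counts are those of all tested genes: 19.4% rose and 21% fell in KO cells. In WT cells 20.2% rose and 20.5% fell. The lists are small, and none was tested as a set. Of 12 elongation factor genes, 2 rose and 4 fell in KO cells and 0 rose and 2 fell in WT cells; Eefsec, the selenocysteine factor, fell in both (log2 -0.53 and -0.51, edgeR adjusted p = 0.00106 and 0.0014), and Eef1a1, which delivers aminoacyl-tRNA, fell in both (log2 -0.37 and -0.25, edgeR adjusted p = 0.00259 and 0.0403). Of 6 tested termination and recycling genes, 4 rose in each genotype and none fell, among them the release factor gene Etf1 (log2 0.79 in KO and 0.91 in WT, edgeR adjusted p = 2.23e-09 and 3.59e-11). Of 8 genes of poly(A)-binding proteins and their partners, 4 rose in each genotype, and 1 fell in KO cells and 0 in WT cells; Larp1, an mTORC1-regulated repressor of ribosomal protein mRNAs, had 648, 690 and 650 CPM in KO 24 h, against 301, 272 and 275 CPM in KO 0 h, and rose by log2 1.23 there and by 1.16 in WT cells (edgeR adjusted p = 8.2e-17 and 4.16e-16). Of 14 genes of other helicases and initiation partners, 4 rose and 2 fell in each genotype; Cyfip2 rose (log2 0.83 and 0.79, edgeR adjusted p = 2.98e-11 and 1.21e-10) and its paralog Cyfip1 fell (log2 -0.82 and -0.84, edgeR adjusted p = 0.00626 and 0.00341). Neither of the 2 enzymes that make hypusine passed in either genotype. The recycling factor gene Abce1 rose in both genotypes (log2 0.70 in KO and 0.72 in WT, edgeR adjusted p = 1.47e-08 and 4.35e-09), as did Larp4 (log2 0.67 and 0.61, edgeR adjusted p = 5.23e-07 and 1.98e-06) and Larp4b (log2 0.55 and 0.86, edgeR adjusted p = 3.85e-05 and 3.17e-09). Eef1e1 and Mcts2 rose in KO cells (log2 0.90 and 1.17, edgeR adjusted p = 0.000924 and 0.0272) and did not pass in WT cells (log2 0.38 and -0.17, edgeR adjusted p = 0.143 and 0.781).

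Among 8 tested genes around eIF2 alpha dephosphorylation and Atf4, 3 rose and 2 fell in KO cells and 2 rose and 2 fell in WT cells. For this list and the next, 19.4% of all tested genes rose and 21% fell in KO cells. The shares were 20.2% and 20.5% in WT cells. Ppp1r15a encodes GADD34, which guides the phosphatase to eIF2 alpha; it had 57.8, 63.5 and 63.6 CPM in KO 24 h, against 530, 480 and 415 CPM in KO 0 h. Ppp1r15a in WT cells had 73.5, 68.2 and 82.4 CPM at 24 h, against 544, 506 and 630 CPM at 0 h. It fell by 2.95 in KO and 2.91 in WT cells on the log2 scale (edgeR adjusted p = 3.88e-27 and 2.32e-27), and the catalytic subunit gene Ppp1ca fell by 0.64 and 0.66 (edgeR adjusted p = 7.59e-08 and 2.76e-08). Atf4 rose in both genotypes (log2 0.50 in KO and 0.43 in WT, edgeR adjusted p = 1.69e-05 and 0.000149). Gcn1l1 rose in both as well (log2 0.35 and 0.22, edgeR adjusted p = 0.00195 and 0.046). Of 11 tested genes of the eIF4E kinases and the mTORC1 pathway, 5 rose and 2 fell in KO cells and 3 rose and 1 fell in WT cells. The eIF4E kinase gene Mknk2 fell in both (log2 -0.51 in KO and -0.38 in WT, edgeR adjusted p = 5.42e-06 and 0.000432). Mtor rose in both genotypes (log2 0.68 in KO and 0.51 in WT, edgeR adjusted p = 6.59e-06 and 0.000392), and so did Rheb, the GTPase that activates mTORC1 (log2 0.53 and 0.86, edgeR adjusted p = 0.00401 and 7.58e-06). Of genes for mTORC1 inhibitors, Tsc1 rose in both (log2 0.61 and 0.73, edgeR adjusted p = 0.00102 and 9.3e-05), and Akt1s1 rose in KO cells (log2 0.63, edgeR adjusted p = 0.00206) and did not pass in WT cells (log2 0.37, edgeR adjusted p = 0.0636). Of the 61 genes tested in all these lists, 0 passed KO against WT at 24 h, at 0 h or in the interaction (edgeR), and 7, 10 and 3 had an unadjusted p under 0.05 in them (11.5%, 16.4% and 4.92%, beside 7.06%, 8% and 5.24% of all tested genes).

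KO and WT cells were then compared at each time, and no member passed at either. At 24 h 0 of 51 members passed, where 0.273% of all tested genes did (0.182% higher and 0.0911% lower); 4 members (7.84%) had an unadjusted p under 0.05, beside 7.06% of all tested genes. At 0 h 0 of 51 passed, where 0.346% of all tested genes did (0.118% higher and 0.228% lower); 7 members (13.7%) had an unadjusted p under 0.05, beside 8% of all tested genes. DESeq2 also called 0 members at each time. The KO libraries lay wholly apart from the WT libraries in 7 members at 24 h (13.7%, beside 12.9% of all tested genes) and in 6 members at 0 h (11.8%, beside 12.4%). Most estimates had the same sign: 35 of 51 members were below 0 at 24 h (68.6%, beside 52.2% of all tested genes) and 38 at 0 h (74.5%, beside 49%). The medians were small, log2 -0.06 at 24 h and -0.05 at 0 h, beside -0.01 and 0.00 over all tested genes. At 24 h the count moved with 1 library: WT 24 h replicate 3 was the highest of its group in 37 of 51 members (72.5%, beside 39.7% of all tested genes), and without it 26 of 51 members were below 0. At 0 h 33 of 51 members were below 0 without WT 0 h replicate 3, the lowest count over all refits. Summed over the members, KO 24 h had 10545 ± 424 CPM against 11213 ± 618 CPM in WT 24 h, with overlap (SD, n = 3 each, exact permutation test, two-sided p = 0.3). KO 0 h had 8931 ± 32.9 CPM against 9412 ± 168 CPM in WT 0 h, without overlap (SD, n = 3 each, exact permutation test, two-sided p = 0.1). Some marker lists also differed between genotypes at 0 h. The CD8 T cell pair had 30.7 to 35.7 CPM in KO 0 h against 17.3 to 18.5 CPM in WT 0 h. Nearly all of that was Cd8b1, and Cd8a, at 0.346 to 2.26 CPM, overlapped. The NK cell list had 31.5 to 40.6 CPM in KO 0 h against 23.3 to 29.6 CPM in WT 0 h, without overlap. The activated T cell list was lower in KO 0 h, with 614 to 685 CPM against 703 to 831 CPM in WT 0 h. Of that list, Cd69, Myc and Tnfrsf4 did not overlap, and Il2ra and Mki67 did. The part of these differences in the 0 h shift of the members was not tested.

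**Figure D4:**
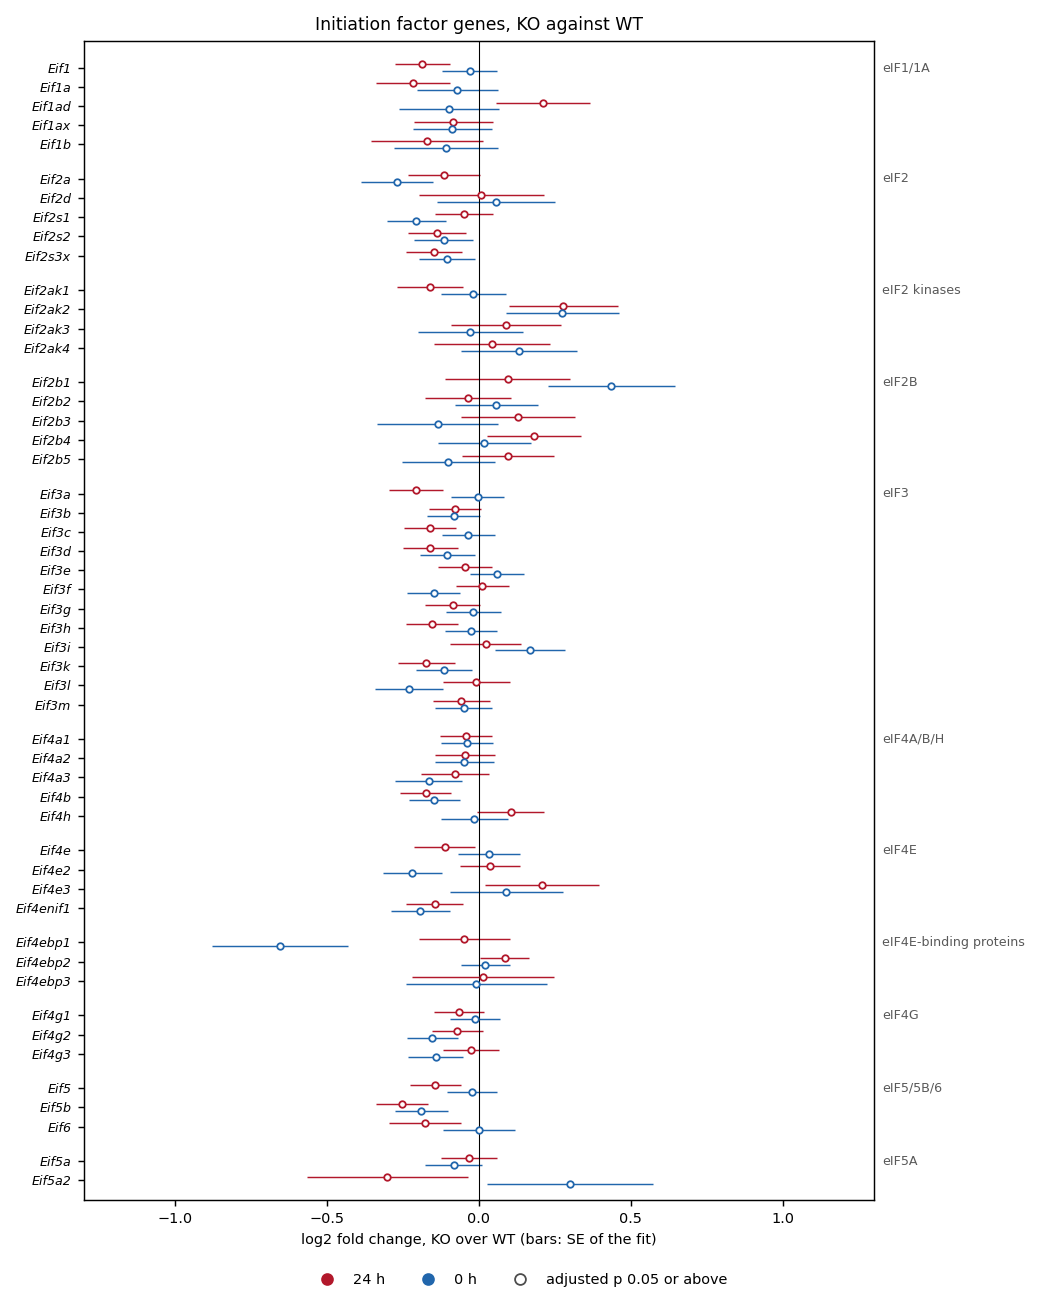
Log2 difference of KO minus WT (x axis) for each of the 51 members (y axis, by factor) at 24 h and at 0 h; points are edgeR estimates and bars are 1 standard error. No member passed an adjusted p of 0.05 at either time; 35 points lie below 0 at 24 h and 38 at 0 h.

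The members with the smallest unadjusted p were Eif5b, Eif3a and Eif4b at 24 h. Eif5b had 217, 217 and 202 CPM in KO 24 h, against 261, 237 and 260 CPM in WT 24 h, with a log2 difference of -0.25 (SE 0.0858, edgeR unadjusted p = 0.00528, adjusted p = 0.377). Its overlap with exons of Rev1 makes these counts less certain. Eif3a had 625, 648 and 546 CPM in KO 24 h, against 701, 664 and 737 CPM in WT 24 h, with a log2 difference of -0.21 (SE 0.0884, edgeR adjusted p = 0.609). In both genes the 3 KO libraries were below the 3 WT libraries, and in Eif4b they overlapped, with 369, 420 and 378 CPM in KO 24 h against 414, 423 and 480 CPM in WT 24 h (log2 -0.17, SE 0.0836, edgeR adjusted p = 0.696). At 0 h they were Eif4ebp1, Eif2a and Eif4e2. Eif4ebp1 had 4.61, 4.84 and 6.58 CPM in KO 0 h, against 9.17, 9.13 and 6.63 CPM in WT 0 h, with a log2 difference of -0.65 (SE 0.224, edgeR unadjusted p = 0.00542, adjusted p = 0.323). The KO libraries were the lower ones, though the highest KO and the lowest WT library nearly met. Eif2a had 46.7, 41.1 and 40.2 CPM in KO 0 h, against 58.5, 47.1 and 49.9 CPM in WT 0 h (log2 -0.27, SE 0.119, edgeR adjusted p = 0.554), and Eif4e2 had 98.9, 94.3 and 92.9 CPM against 108, 122 and 103 CPM in WT 0 h (log2 -0.22, SE 0.0974, edgeR adjusted p = 0.556). Neither gene's KO and WT libraries overlapped.

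The interaction asks whether the 24 h change differed between KO and WT cells, and 0 of 51 members passed it, where 0.00911% of all tested genes did, which is 1 gene. At an unadjusted p under 0.05 there was 1 member (1.96%), beside 5.24% of all tested genes, and DESeq2 called 0 members. That member was Eif4ebp1, whose change was larger by log2 0.61 in KO than in WT cells (SE 0.269, edgeR unadjusted p = 0.0296, adjusted p = 0.929). Its 24 h libraries overlapped between genotypes, with 49.4 to 67.4 CPM in KO 24 h against 49.5 to 70.7 CPM in WT 24 h. The next members were Eif4e2 (log2 0.26, SE 0.138, edgeR adjusted p = 0.963) and Eif3a (log2 -0.20, SE 0.125, edgeR adjusted p = 0.996). The median of the interaction over the members was log2 -0.01, as it was over all tested genes.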

How the data were processed

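The deposited files hold counts of reads per gene symbol for 12 libraries, 3 in each of 4 groups. Total RNA was reduced of ribosomal RNA by probes and libraries were made from 100 ng of RNA, per the labels' protocols. Reads were aligned with STAR 2.6.0c, per the submitters' processing notes, which also name DESeq and the build hg19, although the symbols are mouse ones; no source used here gives the counting tool or its strand setting. The deposited counts carry 5 closing entries, which were left out of library sizes. Per library these hold 22.8% to 35.4% of all entries for no feature, 0.412% to 0.576% for ambiguous ones and 25.7% to 30.9% for alignments that were not unique, so reads shared by overlapping or near-identical genes may be missing or uncertain.

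Counts were tested with edgeR 4.0.16 in R 4.3.3 (quasi-likelihood test, TMM scaling, 1 mean per group, all groups in 1 fit). edgeR's filter (count 10, total 15) kept 10981 genes, over which Benjamini-Hochberg adjustment was made at a threshold of 0.05. CPM use TMM library sizes. The spread between libraries, with a common biological coefficient of variation of 0.115, exceeded counting noise in every group. Alternatives were DESeq2 1.42.0, other scalings, no filter, fits of the compared groups alone, a replicate block and leaving out each library. The test was also run on simulated counts, and no result given here rests on that run. Single values were compared by exact permutation tests. Transcript lengths, exon overlaps and shared 50-base words came from GENCODE vM21, and promoter windows came from RefSeq. The lengths were used for the levels and 4E-BP shares per kilobase, and the overlaps and shared words for properties only. No edgeR test used them.

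The members and the gene lists were chosen with earlier results of these data known. Members received values in every library if they had the 2 largest changes over time of their factor, had the 3 smallest p-values where none passed a genotype comparison, were an eIF2 kinase or a 4E-BP gene, or were paralogs with opposite calls; other genes named were single members of small counts or subunits of a named factor, chosen after their values were seen. In other gene lists the 2 with the largest change were named, and Atf4, Gcn1l1 and Mknk2 were added after their values were seen.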

Additional observations from a re-analysis of the deposited data

How the results depend on the processing

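Directions under the alternatives were followed gene by gene only in the 33 members chosen for values in every library. No called change among these reversed its direction. The other members, called or not, were not followed singly for direction. Estimates that had not passed did change sign: 3 of 429 gene values recomputed over time in KO cells, 1 of 429 in WT cells, 19 and 35 of 429 each for KO against WT at 24 h and 0 h, and 51 of 594 for the interaction, whose median over the members also changed sign in some fits. Among the 33 members, those that did so over time were Eif4ebp2 and Eif4ebp3 in KO cells and Eif4e2 in WT cells. Without KO 24 h replicate 1, Eif4ebp2 was at log2 0.00 and Eif4ebp3 at -0.10. Eif4ebp2 was at 0.00 without KO 0 h replicate 3, and Eif4e2 changed without WT 0 h replicate 2. Members outside the 33 also changed sign: of all 51, 11 were below 0 over time in KO cells, and 13 without KO 24 h replicate 2. Leaving out each library in turn moved the number of members that rose between 20 and 26 in KO cells and between 20 and 25 in WT cells. The number that fell moved between 0 and 5 in KO cells, with 0 without KO 24 h replicate 1, and between 1 and 4 in WT cells, with 1 without WT 24 h replicate 1 or 2; the cause was not tested. Of the 28 calls in each genotype, 18 in KO and 19 in WT cells passed in all 13 refits. No member passed a genotype comparison or the interaction (0 to 0) in any refit. With the replicate number as a block, 23 members rose and 4 fell in KO cells, and 23 rose and 4 fell in WT cells, with 0 in the genotype comparisons and the interaction; the block lost Eif2ak1 in KO and Eif4b in WT cells. Same-numbered libraries were not clearly alike: their deviations correlated between -0.088 and 0.093, and the best match had the same number in 14 of 36 cases. Values this weak cannot exclude that same-numbered libraries share a mouse or a day, which the labels do not give. The count of all genes that passed the interaction was 1, against 0 with RLE or upper-quartile scaling, with Rn45s left out or with the block, and 3 without the filter. The files hold no mitochondrial symbols, so the removal of abundant transcripts took out Rn45s alone, and a fit of the compared groups alone was not run for the interaction, which uses all 4. Depth bears most on the members with few reads: the standard error of the change over time in KO cells was 0.271 for Eif5a2 and 0.0827 for Eif4g2.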
